A study of Mus musculus with 12 samples.

Results

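The 52 genes described here encode chromatin regulators that act beside Polycomb repressive complex 2 (PRC2): the subunits of Polycomb repressive complex 1 (PRC1), the trithorax methyltransferases, SWI/SNF remodellers, histone acetyltransferases and bromodomain readers, and the enzymes that add or oxidise DNA methylation. They were chosen by gene name, and all 52 were found among the 55367 mouse genes counted. All 52 also passed the filter on low counts that left 13384 genes for testing. RNA was sequenced from whole blood of CB17-SCID mice, an immunodeficient strain that cannot make mature T and B lymphocytes, each carrying a xenograft grown from the human bladder cancer line HT1376. Mice received vehicle or CPI-0209 (written CPI0209 in the labels), an inhibitor of EZH2 and EZH1, the catalytic subunits of PRC2, at 35 mg per kg by mouth once daily for 11 days. Blood was drawn 1, 6 or 24 h after the last dose of CPI-0209, and each of these groups and the vehicle group held 3 libraries. The strain and the xenograft were shared by all 4 groups, and the labels give neither the age of the mice, nor the hour at which vehicle blood was drawn, nor whether the replicates came from separate animals, so that p-values measure the spread between these samples.

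PRC1 places ubiquitin on histone H2A through RING1 or RNF2, and its chromobox (CBX) subunits can bind the H3K27 methylation that PRC2 makes. Trithorax group proteins, SWI/SNF remodellers and the acetyltransferases p300 and CBP oppose this repression, p300 and CBP by acetylating the same lysine of histone H3 that PRC2 methylates. In blood formation several of the genes have well-known roles: Bmi1 sustains stem cells, and TET2, DNMT3A and ASXL1 are recurrently mutated in human clonal haematopoiesis.

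Library totals ran from 6496573 to 9978215 counts, and levels are given as CPM, each gene's count relative to the scaled library total, after scaling by the trimmed mean of M values (TMM), in replicate order within a group. Summed markers of T cells came to between 22.1 and 42.9 CPM, almost all of it Lck, which NK cells also express. The B cell marker Ms4a1 had no count in any library. NK markers summed to between 314 and 528 CPM. The group that stood apart was blood at 6 h, in which 19 reticulocyte markers of a list of 20 averaged 9.25, 9.22 and 9.10 on the log2 CPM scale, against 7.45, 7.38 and 7.89 in vehicle blood. At 1 h that average was 8.25, 8.40 and 8.20, and the 3 libraries at 24 h differed most among themselves, at 7.25, 7.69 and 8.60. Of the 19 markers, 12 rose and none fell at 6 h against vehicle. Summed monocyte markers, 9 of 9 tested, came to 1271 to 1356 CPM at 1 h, 1077 to 1270 CPM at 6 h and 1291 to 1705 CPM at 24 h, against 1462 to 1678 CPM in vehicle blood, so that every 1 h and 6 h library lay below vehicle. Of these 9 markers Ccr2, a chemokine receptor of inflammatory monocytes, fell at 6 h (log2 fold change -0.63, adjusted p = 0.0479). Ccr2 made up a large part of the sum, averaging 519 CPM at 1 h and 525 CPM at 6 h, against 813 CPM in vehicle blood. Of the 9, 5 had a positive and 4 a negative log2 fold change at 1 h (median 0.22), and 3 and 6 at 6 h (median -0.21). Summed neutrophil markers, 12 of 12 tested, came to 7097 to 12496 CPM at 6 h, against 5256 to 10336 CPM in vehicle blood. Among them Mmp8, a neutrophil collagenase, rose (1.38, adjusted p = 0.0456). The markers did not move together: 8 of the 12 had a positive and 4 a negative log2 fold change at 6 h (median 0.36). Summed platelet markers came to 2302 to 3198 CPM at 6 h, against 1770.0 to 2496 CPM in vehicle blood. In bulk blood, fewer cells of a type and less RNA per cell cannot be told apart. The 52 genes took 0.320%, 0.346% and 0.306% of all counts at 6 h, against 0.491%, 0.445% and 0.442% in vehicle blood. Their share was 0.485%, 0.400% and 0.487% at 1 h, and spread from 0.681% and 0.506% to 0.357% at 24 h.

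Promoter sequence was a feature that the choice of the genes did not use. Of the 52, 41 had an entry in the RefSeq table of GRCm38.p6, and the 250 bases upstream of the first listed start were read on the gene's strand. The median promoter held 23 CpG dinucleotides (interquartile range 16 to 31), against 6 (2 to 16) over 27025 promoters, and its median GC content was 68%, against 52%. The ratio of observed to expected CpG was 0.6 or more in 35 of 41 (85.4%), against 34.5% of all promoters. The letters GGGCGG, the core of the GC box, occurred on either strand in 34 of 41 (82.9%), against 32.9% of all promoters. CACGTG, the canonical E-box, occurred in 10 of 41 (24.4%), against 6.05%, and GATAA, the letters bound by GATA factors, in 2 of 41 (4.88%), against 23.0%. GGGCGG and GATAA were searched on both strands, CACGTG reads the same on both, and these matches are descriptions of letters, not of bound sites. All 52 genes passed the filter on low counts, whereas the 27025 promoters were not limited to genes that did. Nor were they matched for GC content. Whether the differences are particular to these genes was not tested. Other starts of a gene were not read, and whether blood cells use the first listed start was not tested. By that start alone, the extremes of CpG count among the 41 were Tet2 with 51 and Dnmt1 with 2. Both are enzymes of the DNA methylation cycle, and a gene's other promoters may differ. The 2 sequences are printed 5′ to 3′ with each CpG in capitals, from chr3:133544391-133544640 (minus strand) and chr9:20959889-20960138 (minus strand).
Tet2: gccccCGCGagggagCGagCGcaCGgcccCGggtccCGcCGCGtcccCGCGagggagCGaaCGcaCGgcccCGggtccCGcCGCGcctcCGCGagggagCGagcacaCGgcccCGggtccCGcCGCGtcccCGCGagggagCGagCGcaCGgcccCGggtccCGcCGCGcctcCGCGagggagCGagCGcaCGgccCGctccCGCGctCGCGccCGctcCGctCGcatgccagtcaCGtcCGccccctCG
Dnmt1: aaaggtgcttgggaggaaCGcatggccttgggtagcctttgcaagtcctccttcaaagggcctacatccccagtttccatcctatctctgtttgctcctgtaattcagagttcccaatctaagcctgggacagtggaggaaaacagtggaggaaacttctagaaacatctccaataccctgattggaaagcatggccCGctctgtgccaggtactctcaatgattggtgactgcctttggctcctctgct

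Levels were divided by the kb of all annotated exons of a gene, which allows only a rough comparison between genes. Which transcripts of a gene blood cells express was not tested. On this scale the highest in vehicle blood were Yaf2, a PRC1 subunit of the RYBP family, at 24.8 ± 3.28 CPM per kb, Ep400, a NuA4/TIP60 remodeller, at 23.3 ± 1.26, and Arid1a, a SWI/SNF subunit, at 22.6 ± 4.03 (mean ± SD, n = 3). The spreads of these 3 overlap, so their order is not resolved. Kdm6b at 22.2 ± 1.93 and Crebbp at 20.7 ± 2.99 CPM per kb also overlap Arid1a, so which genes are the 3 highest is not resolved either. The lowest were Cbx2 at 0.169 ± 0.125 CPM per kb, Pcgf6 at 0.254 ± 0.192 and Pcgf2 at 0.264 ± 0.222, all PRC1 subunits. Paralogues differed in level. Among the 6 PCGF proteins, of which each PRC1 complex holds 1, Bmi1 (PCGF4) stood at 6.70 ± 1.61 CPM per kb and Pcgf3 at 2.77 ± 0.307, while Pcgf2, the closest relative of Bmi1, was near the bottom. Of the 2 RING ligases, Rnf2 stood at 9.21 ± 1.31 CPM per kb and Ring1 at 0.587 ± 0.733, a level at which 1 vehicle library of 3 carried most of the counts. The 4 CBX genes among the 52 all lay under 1 CPM per kb. The polyhomeotic genes, which encode other PRC1 subunits, stood at 1.25 ± 0.248 (Phc1), 4.36 ± 0.456 (Phc2) and 4.93 ± 0.454 (Phc3).

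**Figure D1:**
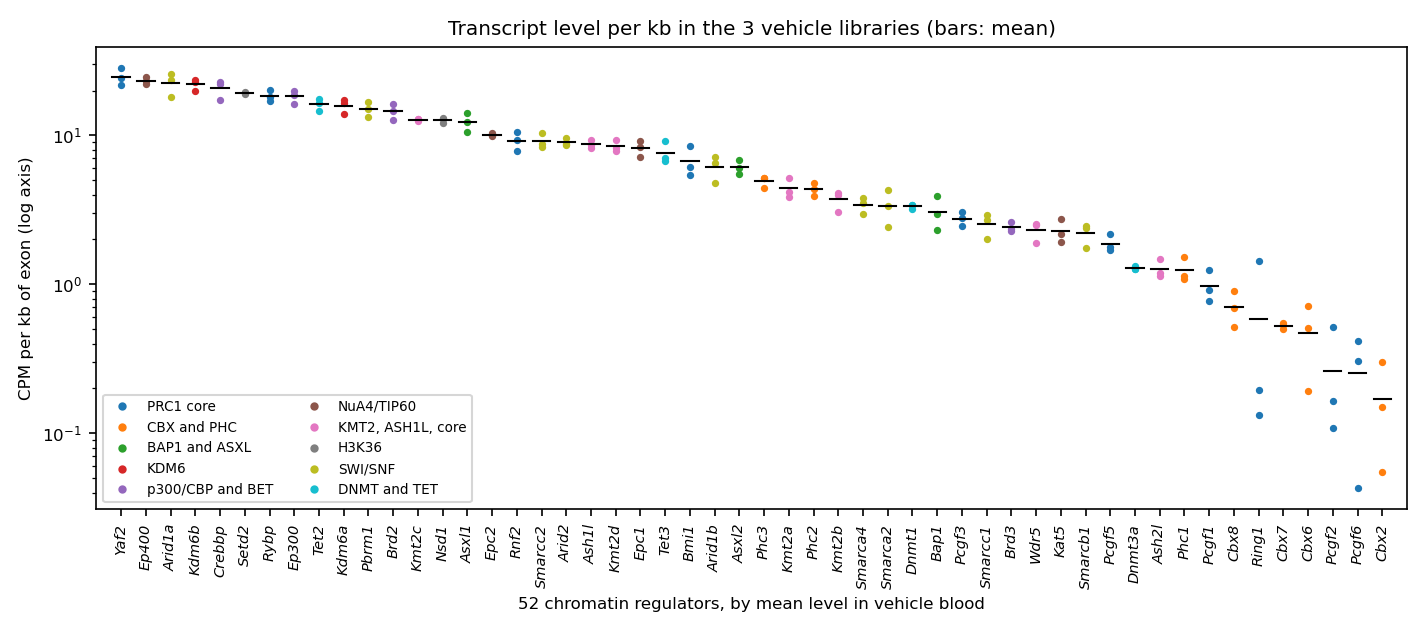
Level per kb of exon in the 3 vehicle libraries (points, log axis) and their mean (bars) for the 52 genes, from Yaf2 at 24.8 to Cbx2 at 0.169 CPM per kb. Colours give the role, and most CBX and several PCGF genes sit at the low end.

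Against vehicle, 1 of the 52 genes passed an adjusted p of 0.05 in edgeR's quasi-likelihood test at 1 h, 1 at 6 h, none at 24 h and 1 for the mean of the 3 times, and it was Epc1 each time. Over all 13384 genes the share called was 0.194% at 1 h, 4.84% at 6 h, 0.105% at 24 h and 0.934% for the mean of the times. The shares called lower, the direction of Epc1, were 0.0149%, 0.785% and 0.0523% at 1 h, 6 h and for the mean of the times. In the test over all 4 groups Epc1 was again the single gene of the 52, against 3.11% of all genes. At 6 h the single call among 52 was no larger a share than that over all genes. The 3 comparisons share their vehicle libraries. The median log2 fold change of the 52 was -0.04 at 1 h, against -0.02 over all genes tested. It was -0.05 at 6 h, against -0.04, and 0.07 at 24 h, against 0.01. At an unadjusted p under 0.05 there were 6 of the 52 at 1 h, 8 at 6 h and 5 at 24 h, against 6.99%, 19.6% and 8.37% of all genes. Libraries did not overlap vehicle for 10 genes at 1 h (4 above, 6 below), 19 at 6 h (8 above, 11 below) and 10 at 24 h (7 above, 3 below). Over all genes 8.92% lay above and 8.44% below vehicle at 1 h, 15.8% above and 13.5% below at 6 h, and 6.34% above with 5.61% below at 24 h. All 9 treated libraries lay below all vehicle libraries for 2 of the 52, Epc1 and Setd2, against 0.77% of all genes, and none of the 52 had all 9 above, against 1.3%. Scaling by library totals alone, without TMM, moved the median of all genes at 6 h against vehicle to -0.50 and that of the 52 to -0.51, and turned the 543 genes higher and 105 lower into 344 higher and 1488 lower. Under it 9 of the 52 were lower at 6 h, beside 11.1% of all genes, with Epc1 at -1.37.

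**Figure D2:**
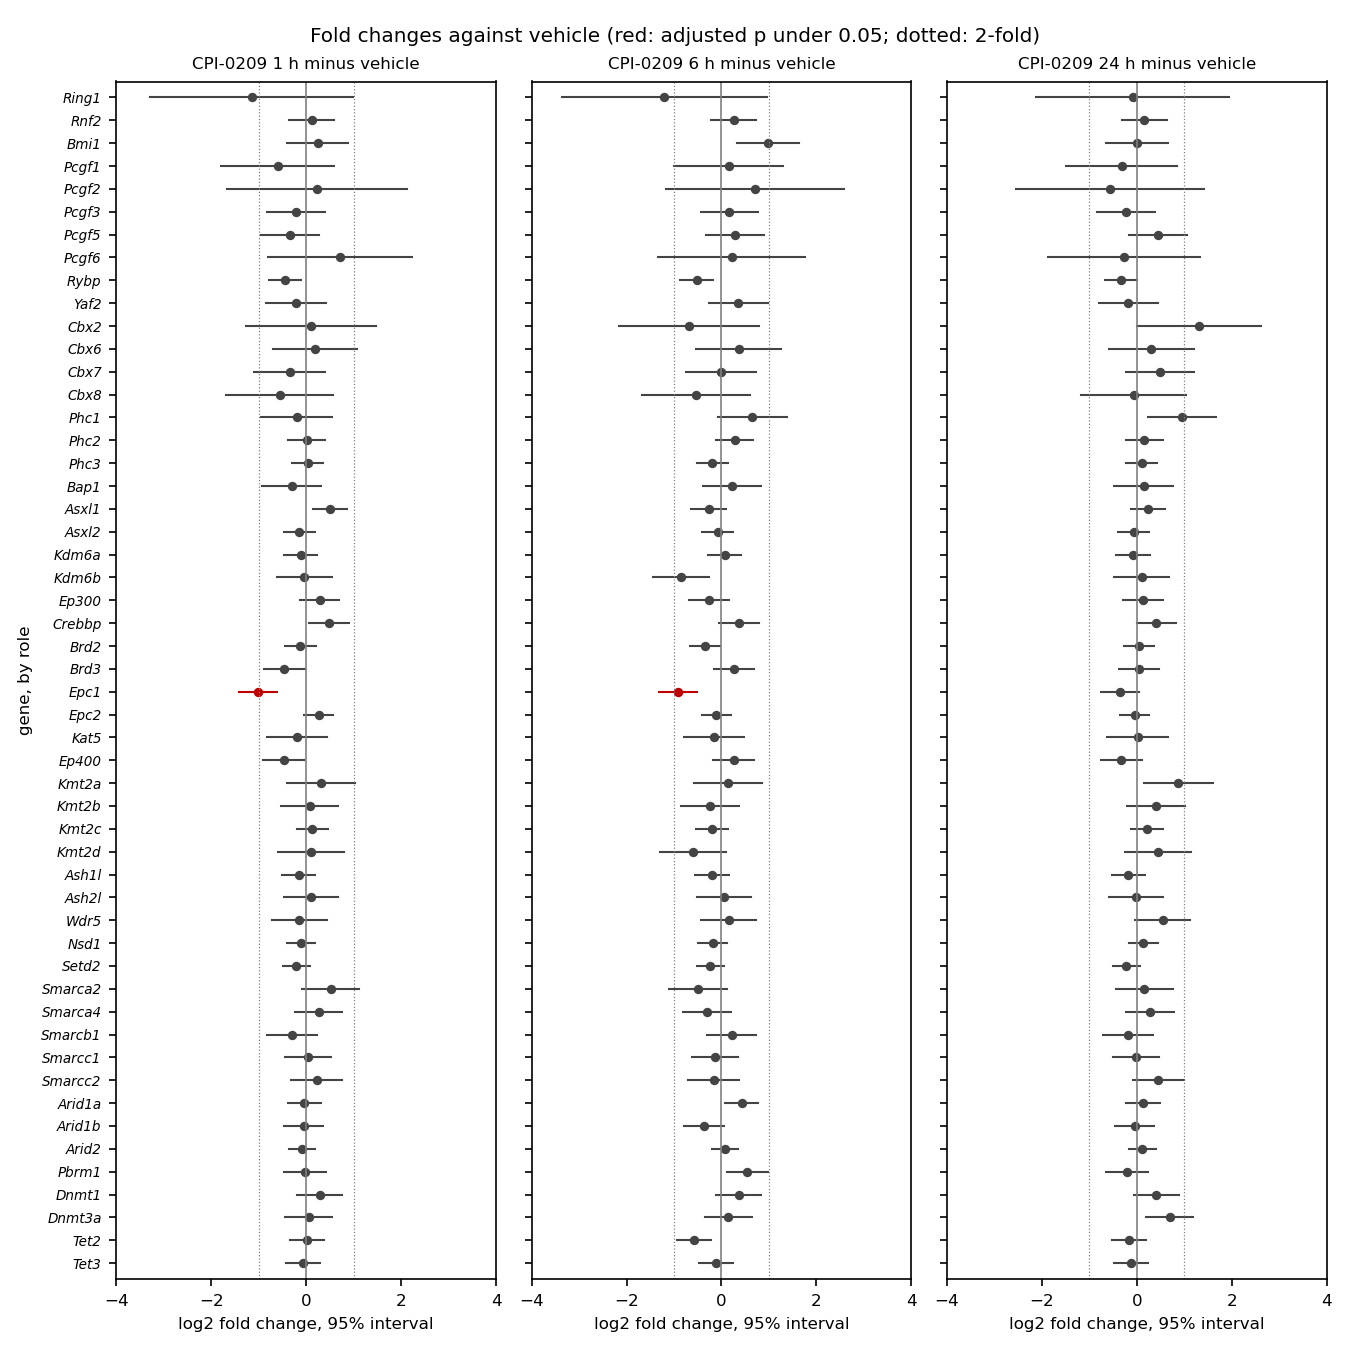
Log2 fold change (points) with its 95% interval (lines) for each gene at 1, 6 and 24 h against vehicle, from the edgeR fit to 12 libraries. Red marks an adjusted p under 0.05: Epc1 at 1 h (-1.02) and at 6 h (-0.91).

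Epc1 encodes a scaffold subunit of NuA4/TIP60, the complex in which the acetyltransferase KAT5 and the remodeller EP400 act on histones H4 and H2A. The gene lies on chromosome 18 at chr18:6435951-6516108 on the minus strand of GRCm38. Its level was 40.8, 31.9 and 37.2 CPM in vehicle blood, 16.5, 22.0 and 15.7 CPM at 1 h, 21.5, 19.9 and 17.0 CPM at 6 h and 31.2, 27.3 and 27.7 CPM at 24 h. All 9 libraries of treated mice lay below the lowest vehicle library, those at 1 and 6 h by the most, and the 24 h libraries lay above every 1 h and 6 h library. Epc1 fell at 1 h, with a log2 fold change of -1.02 (95% interval -1.42 to -0.62, adjusted p = 0.0445), and at 6 h, with -0.91 (95% interval -1.31 to -0.51, adjusted p = 0.0125). At 24 h it was -0.35 (95% interval -0.74 to 0.05, adjusted p = 0.652), which did not pass, and for the mean of the 3 times -0.76 (95% interval -1.07 to -0.45, adjusted p = 0.0226), which did. The difference of 24 h against 6 h was 0.56 (95% interval 0.16 to 0.96, adjusted p = 0.106) and that of 24 h against 1 h 0.67 (95% interval 0.27 to 1.07, adjusted p = 0.521), and neither passed.

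At 1 h the Epc1 log2 fold change lay between -1.19 and -0.91 over 21 alternative fits, in 14 of which the adjusted p was above 0.05, among them 10 of the 12 fits that left out 1 library. At 6 h the call was lost in 2 of 12, without vehicle replicate 1 (adjusted p = 0.0642) and without 6 h replicate 3 (adjusted p = 0.0628). For the mean of the times it was lost in 5 of 12. With the reticulocyte average as a covariate the 6 h log2 fold change was also -0.91, with an adjusted p of 0.359, in a fit in which none of the 13384 genes passed. That average was 9.10 to 9.25 at 6 h, a range that no library of another group reached. Covariate-adjusted values at 6 h, here and below, are therefore extrapolations. At 1 h the fit with the covariate gave Epc1 a log2 fold change of -1.02 (adjusted p = 0.0472), which passed. The reticulocyte average was 8.20 to 8.40 at 1 h and 7.38 to 7.89 in vehicle blood, without overlap, so that value is an extrapolation too. The summed monocyte markers, like Epc1, were below vehicle in every library at 1 and 6 h. At 1 h, though, 5 of the 9 single markers had a positive log2 fold change, with a median of 0.22. The part of monocytes in the Epc1 result was not tested. The exons of Epc1 overlap an antisense transcript, Gm28529, over 322 bases (7.20% of its exon length), and strand-specific counting is not stated.

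Other NuA4/TIP60 genes did not pass at any time. Epc2, the paralogue of Epc1, was 48.6, 46.6 and 47.2 CPM in vehicle blood, 59.4, 51.4 and 60.3 CPM at 1 h, 45.8, 42.2 and 44.1 CPM at 6 h and 42.7, 46.1 and 49.1 CPM at 24 h, with all 1 h libraries above vehicle and all 6 h libraries just below it. The log2 ratio of Epc1 to Epc2 was -1.17 ± 0.48 over the 9 treated libraries and -0.38 ± 0.15 over the 3 vehicle libraries. An exact two-sided permutation test over libraries gave p = 0.0273, and 0.164 after adjustment over 8 paralogue pairs chosen with values known, so the ratio did not pass. Kat5, the catalytic subunit, averaged 7.04 ± 1.09 CPM at 1 h, 7.19 ± 1.68 CPM at 6 h and 8.05 ± 2.67 CPM at 24 h (SD, n = 3), against 6.74, 9.67 and 7.63 CPM in the vehicle libraries, and its libraries overlapped vehicle at each time. Its exons overlap those of Rnaseh2c on the other strand over 12.1% of their length. Ep400 read 343, 308 and 325 CPM in vehicle blood, 252, 226 and 225 CPM at 1 h, 401, 388 and 379 CPM at 6 h and 257, 176 and 346 CPM at 24 h: lower than vehicle in all 1 h libraries, above it in all 6 h libraries, and spread at 24 h. Its differences were -0.47 (95% interval -0.90 to -0.04, adjusted p = 0.64) at 1 h and 0.26 (95% interval -0.17 to 0.69, adjusted p = 0.514) at 6 h, and neither passed. For 6 h against 1 h it was 0.73 (95% interval 0.30 to 1.17, adjusted p = 0.0904).

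**Figure D3:**
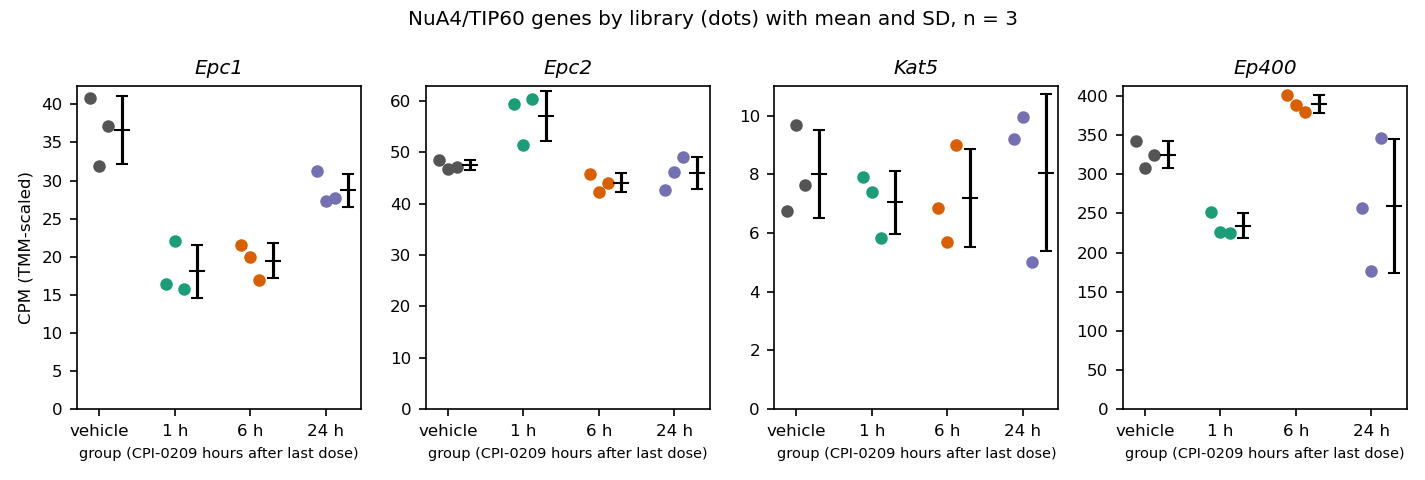
CPM of 4 NuA4/TIP60 genes by library (dots; lines to the right: mean and SD, n = 3) in vehicle blood and at 1, 6 and 24 h. Epc1 averages 18.1 and 19.5 CPM at 1 and 6 h, against 36.6 CPM in vehicle blood, and the other 3 genes overlap vehicle at 24 h.

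The PRC1 core, 10 genes, had no call at any time. Bmi1 was 33.8, 24.4 and 21.6 CPM in vehicle blood, 17.7, 39.0 and 37.8 CPM at 1 h, 41.2, 43.4 and 72.6 CPM at 6 h and 21.5, 28.9 and 30.0 CPM at 24 h. Every 6 h library was above every vehicle library, with a log2 fold change of 0.98 (95% interval 0.33 to 1.62, adjusted p = 0.0803), and 24 h libraries were below those at 6 h, at -0.97 (95% interval -1.62 to -0.32, adjusted p = 0.0917). Rybp, which recruits and stimulates PRC1 variants, was 57.0, 67.9 and 57.2 CPM at 6 h, against 85.4, 80.7 and 95.8 CPM in vehicle blood, below vehicle throughout, with a log2 fold change of -0.52 (95% interval -0.86 to -0.18, adjusted p = 0.0747). At 1 h it was also below vehicle in all 3 libraries, at -0.44 (95% interval -0.78 to -0.10, adjusted p = 0.47). Pcgf5, in a PRC1 variant, was higher at 6 h than at 1 h in every library, at 0.62 (95% interval 0.01 to 1.24, adjusted p = 0.237). The median log2 fold change of the 10 was -0.22 at 1 h, 0.24 at 6 h and -0.20 at 24 h, and the intervals of Ring1, Pcgf1, Pcgf2 and Pcgf6, which averaged between 0.802 and 1.80 CPM at 6 h, reached beyond 2-fold there.

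The CBX and polyhomeotic genes, 7 in all, had no call, and their median log2 fold change was 0.01 at 1 h, -0.02 at 6 h and 0.31 at 24 h. Phc1, a polyhomeotic subunit of canonical PRC1, was 15.4, 10.5 and 12.7 CPM at 24 h, against 8.14, 6.02 and 5.73 CPM in vehicle blood, all above vehicle, with a log2 fold change of 0.95 (95% interval 0.23 to 1.68, adjusted p = 0.471). Cbx2, a chromobox reader, was 1.40, 2.06 and 2.03 CPM at 24 h, against 0.232, 1.29 and 0.636 CPM in vehicle blood, again all above vehicle, and the log2 fold change was 1.31 (95% interval 0.00 to 2.62, adjusted p = 0.595). Cbx7 was 4.66, 5.63 and 4.06 CPM at 24 h, against 3.25, 3.44 and 3.56 CPM in vehicle blood, at 0.49 (95% interval -0.23 to 1.21, adjusted p = 0.766). Among the 7 genes, these 3 were those whose 24 h libraries did not overlap vehicle.

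BAP1, with ASXL1 or ASXL2, forms the deubiquitinase that removes the PRC1 mark from H2A. Asxl1 was 78.2, 91.4 and 105 CPM in vehicle blood, 125, 111 and 154 CPM at 1 h, 72.9, 80.3 and 74.9 CPM at 6 h and 125, 98.8 and 101 CPM at 24 h, highest at 1 h, where all libraries exceeded vehicle. The log2 fold change at 1 h was 0.51 (95% interval 0.14 to 0.87, adjusted p = 0.407), and for 6 h against 1 h it was -0.77 (95% interval -1.14 to -0.41, adjusted p = 0.0624). The 4-group test gave an adjusted p of 0.0678. Bap1 and Asxl2 overlapped vehicle at every time, with adjusted p of 0.719 and 0.811 at 6 h.

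Neither of the H3K27 demethylases, which remove the PRC2 mark, passed. Kdm6b was 164, 139 and 159.7 CPM in vehicle blood, 173, 134 and 143 CPM at 1 h, 96.6, 84.4 and 75.6 CPM at 6 h and 255, 149.6 and 91.0 CPM at 24 h. All 6 h libraries lay below vehicle, and the 24 h libraries ran from above to below it. The log2 fold change at 6 h was -0.85 (95% interval -1.44 to -0.26, adjusted p = 0.0949), and at 24 h against 6 h 0.95 (95% interval 0.36 to 1.54, adjusted p = 0.0757), which became 0.52 without 24 h replicate 1. With the reticulocyte average as covariate the sign at 6 h turned to 0.52. Kdm6a, its X-linked paralogue, was between 123 and 139 CPM in group means, with overlapping libraries at each time against vehicle.

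Of the 4 acetyltransferase and BET genes none passed. Crebbp, which encodes CBP, was 384, 353 and 436 CPM at 1 h, against 299.9, 234 and 307 CPM in vehicle blood, above it in each library, at 0.48 (95% interval 0.07 to 0.89, adjusted p = 0.592). Ep300, its paralogue, was 202, 220.0 and 229 CPM at 6 h, against 265, 233 and 285 CPM in vehicle blood, below it in each, at -0.27 (95% interval -0.68 to 0.15, adjusted p = 0.488). Brd3, a BET reader of acetylated histones, was 13.5, 13.3 and 12.1 CPM at 1 h, against 19.3, 17.3 and 16.8 CPM in vehicle blood, below it in each, at -0.46 (95% interval -0.88 to -0.03, adjusted p = 0.665), and for 6 h against 1 h it was 0.73 (95% interval 0.30 to 1.15, adjusted p = 0.0896). Brd2 was 84.2, 94.6 and 88.7 CPM at 6 h, against 128, 113 and 98.6 CPM in vehicle blood, at -0.35 (95% interval -0.67 to -0.03, adjusted p = 0.211), and turned to 0.12 with the reticulocyte covariate.

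Of the 7 trithorax and COMPASS genes (KMT2 methyltransferases of H3K4, ASH1L, and the shared subunits ASH2L and WDR5) none passed. Kmt2d, which writes H3K4me1 at enhancers, was 185, 157 and 164 CPM in vehicle blood, 196, 150.3 and 197 CPM at 1 h, 116, 119 and 100.1 CPM at 6 h and 399, 176 and 114 CPM at 24 h. Replicate 1 at 24 h was the highest of all 12 libraries, and the 6 h libraries lay below vehicle. Its log2 fold change was -0.59 (95% interval -1.28 to 0.10, adjusted p = 0.335) at 6 h and, for 24 h against 6 h, 1.04 (95% interval 0.34 to 1.74, adjusted p = 0.0917), which became 0.40 without that replicate. Kmt2a, the mammalian trithorax founder, was 157, 99.8 and 149 CPM at 24 h, against 64.5, 86.7 and 69.0 CPM in vehicle blood, above it in each, at 0.88 (95% interval 0.16 to 1.60, adjusted p = 0.505). Kmt2c, the paralogue of Kmt2d, was 209.9, 239 and 228 CPM at 6 h, against 261, 253 and 263 CPM in vehicle blood, below it in each, at -0.20 (95% interval -0.53 to 0.14, adjusted p = 0.53). Of the H3K36 methyltransferases, Setd2 was lower than vehicle in all 9 treated libraries, with a log2 fold change for the mean of the times of -0.22 (95% interval -0.45 to 0.01, adjusted p = 0.492). Nsd1 was 245, 255 and 234 CPM at 24 h, against 212, 227 and 228 CPM in vehicle blood, above it in each, at 0.14 (95% interval -0.16 to 0.44, adjusted p = 0.85).

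SWI/SNF, 9 genes, had no call. Pbrm1, the polybromo subunit of PBAF, was 117, 134 and 148 CPM in vehicle blood, 135, 133 and 125 CPM at 1 h, 202, 181 and 199.9 CPM at 6 h and 76.6, 117 and 154 CPM at 24 h. All 6 h libraries were above vehicle, with a log2 fold change of 0.55 (95% interval 0.11 to 0.99, adjusted p = 0.152), and 24 h libraries were below those at 6 h, at -0.75 (95% interval -1.19 to -0.31, adjusted p = 0.0684). With the reticulocyte covariate the 6 h sign turned to -0.49. Smarca2, one of the ATPases, was 32.7, 38.4 and 31.2 CPM at 6 h, against 76.2, 56.0 and 74.0 CPM at 1 h, below it in each library, at -1.01 (95% interval -1.62 to -0.40, adjusted p = 0.0954). Against vehicle at 1 h Smarca2 was 0.51 (95% interval -0.08 to 1.11, adjusted p = 0.78), which became 1.24 and passed (adjusted p = 0.0117) with the reticulocyte covariate. The reticulocyte average was 8.20 to 8.40 at 1 h and 7.38 to 7.89 in vehicle blood, without overlap, so this adjusted value is also an extrapolation. Arid1a was 366, 363 and 315 CPM at 6 h, against 299, 208 and 271 CPM in vehicle blood, above it in each, at 0.43 (95% interval 0.07 to 0.78, adjusted p = 0.162), and turned to -0.033 under library totals alone.

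**Figure D4:**
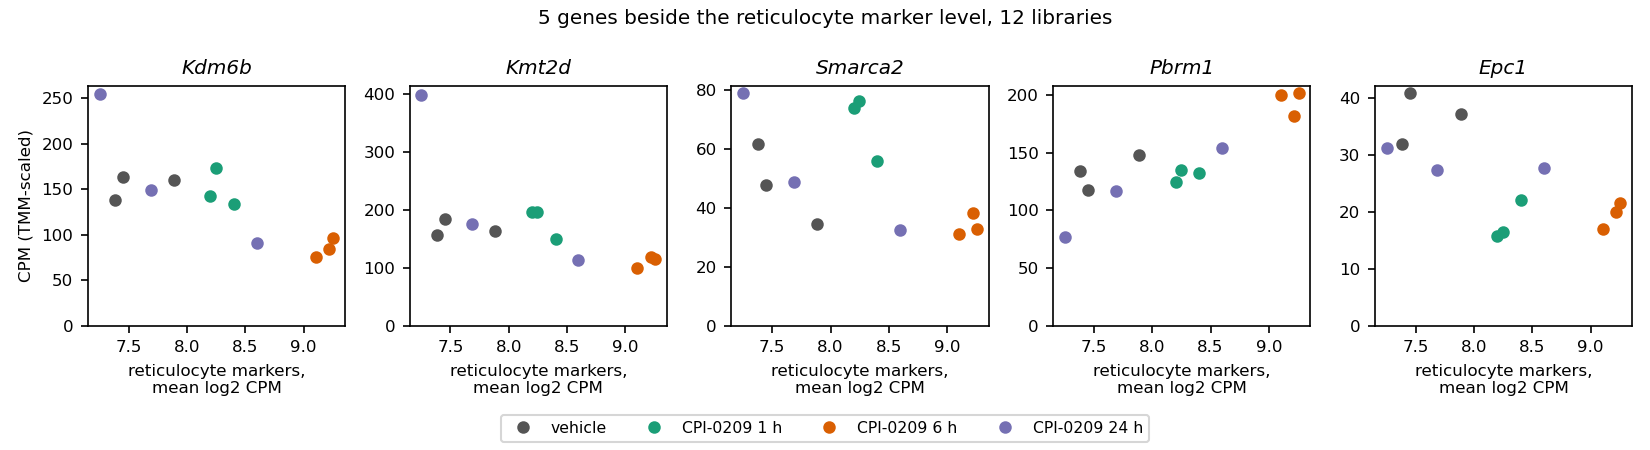
CPM of 5 genes against the mean log2 CPM of the reticulocyte markers, 1 point per library, coloured by group (vehicle, 1 h, 6 h, 24 h). The 6 h libraries, on the right, hold the 3 highest Pbrm1 values. Kdm6b and Kmt2d average lowest at 6 h, but 24 h replicate 3 lies in the same range (91.0 and 114 CPM), and the highest Kdm6b and Kmt2d values belong to 24 h replicate 1 on the far left.

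Of the DNA methylation genes, Tet2, which oxidises 5-methylcytosine, was 155, 202 and 194 CPM at 6 h, against 248, 277 and 296 CPM in vehicle blood, below it in each, at -0.58 (95% interval -0.93 to -0.22, adjusted p = 0.0613). Dnmt3a, a de novo methyltransferase, was 47.4, 29.6 and 27.3 CPM at 24 h, against 22.2, 21.0 and 21.2 CPM in vehicle blood, above it in each, at 0.70 (95% interval 0.20 to 1.19, adjusted p = 0.448), with replicate 1 well above the others and 0.41 without it. Dnmt1, the maintenance methyltransferase, was above vehicle in every library at 1 and at 6 h, at 0.28 (95% interval -0.19 to 0.76, adjusted p = 0.901) and 0.36 (95% interval -0.11 to 0.84, adjusted p = 0.397). Tet3 overlapped vehicle at every time.

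**Figure D5:**
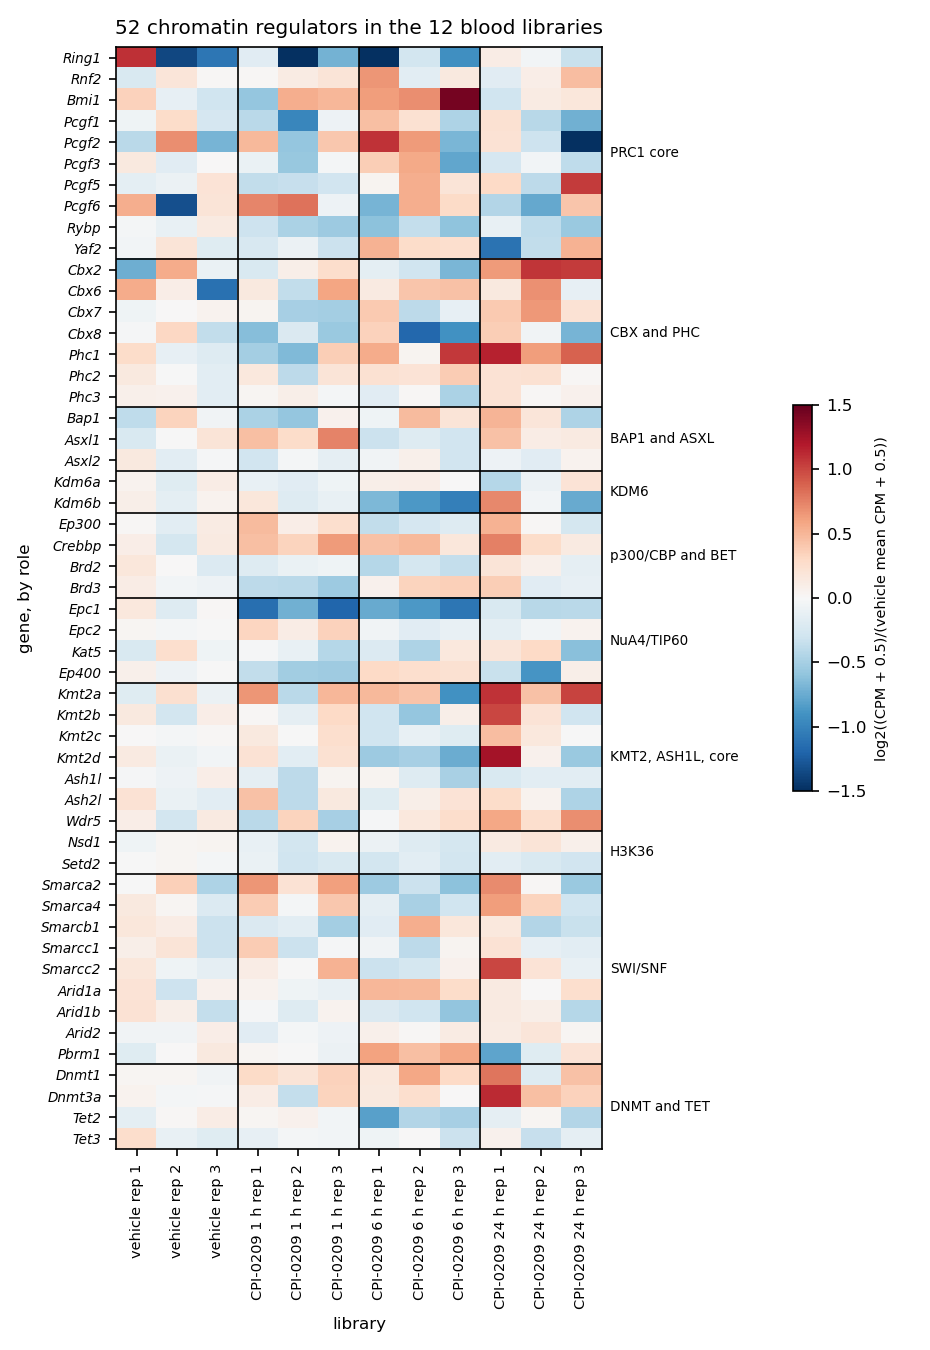
Log2((CPM + 0.5)/(vehicle mean CPM + 0.5)) of the 52 genes in the 12 libraries, grouped by role. Epc1 is blue in all 9 treated libraries, and the 24 h columns differ from one another, with Kmt2d at 399 CPM in replicate 1 and 114 CPM in replicate 3.

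Between times no gene of the 52 passed at 6 h against 1 h, at 24 h against 6 h or at 24 h against 1 h, where 0.493%, 1.76% and 0.0224% of all genes did. At an unadjusted p under 0.05 there were 15, 18 and 8 of 52, against 20.7%, 22.1% and 6.11% of all genes. Without 24 h replicate 1, 6 of the 52 passed at 6 h against vehicle, where 8.63% of all genes did, and 9 at 6 h against 1 h, where 7.21% did. Without 24 h replicate 3, 5 passed at 6 h against vehicle (8.99% of all genes), 8 at 6 h against 1 h (9.12%) and 15 at 24 h against 6 h (15.9%). The 6 genes at 6 h without replicate 1 were Epc1, Kdm6b, Kmt2d, Rybp and Tet2, which fell, and Pbrm1, which rose. DESeq2 gave 5 at 6 h against vehicle, beside 8.67% of all genes, and these were Bmi1, higher, and Epc1, Kdm6b, Rybp and Tet2, lower.

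Further subunits and enzymes of the same complexes were examined with a list of 73 genes, of which 70 were tested. At 6 h 3 rose and none fell, about the share called higher over all genes (4.06%), and at 1 h and 24 h none passed. Kat6b, an acetyltransferase of histone H3, was 68.8, 98.3 and 65.8 CPM at 6 h, against 47.9, 36.9 and 44.9 CPM in vehicle blood, at 0.85 (95% interval 0.37 to 1.32, adjusted p = 0.0422). Brpf3, a scaffold of the KAT7 acetyltransferase complex, was 285, 248 and 215 CPM at 6 h, against 133, 108 and 109 CPM in vehicle blood, at 1.09 (95% interval 0.48 to 1.70, adjusted p = 0.041). The PRC2 genes did not pass against vehicle at any time. Ezh2 was 438, 414 and 372 CPM at 6 h, against 306, 264 and 270.4 CPM in vehicle blood, at 0.54 (95% interval -0.22 to 1.31, adjusted p = 0.43), and the log2 fold change at 6 h was 0.21 for Ezh1, 0.10 for Eed and 0.08 for Suz12. At 24 h 3 of these 4 had a negative log2 fold change and 1 a positive one, from -0.61 to 0.16. Ezh2 was then spread, at 86.5, 180 and 391 CPM. Suz12 was 27.4, 61.2 and 53.1 CPM at 24 h, against 77.3, 73.5 and 65.9 CPM in vehicle blood. Of the 52 genes, the 95% interval lay within 2-fold of no change for 41 at 1 h, 39 at 6 h and 37 at 24 h, and within 1.5-fold for 18, 10 and 19. These intervals, like the tests, used a spread for each gene that was shared by all 4 groups. Libraries at 24 h differed most among themselves, so the intervals may be too narrow at 24 h and too wide at 1 and 6 h.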

How the data were processed

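Whole-blood RNA was extracted with PAXgene kits, depleted of ribosomal RNA and sequenced as paired ends, per the labels' protocols. The authors deposited whole-number counts per gene, and the submitters' processing notes name RSEM, with no version. Whether these are rounded RSEM estimates is not stated. Those notes list hg38 although the gene identifiers are mouse, and which aligner, annotation or strand setting was used is unknown here. Of 55367 identifiers, 55111 were found in GENCODE M21 of GRCm38, which supplied positions and exon lengths. Library totals were 6496573 to 9978215 counts, and all 12 libraries were used.

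Counts were filtered with filterByExpr (13384 genes kept), scaled by TMM and fitted in edgeR 4.0.16 (R 4.3.3) with 4 group means and a quasi-likelihood test, for 7 contrasts and a 4-group test. Adjustment was by Benjamini-Hochberg across the 13384 genes, and calls were made at 0.05. The procedure was tested on simulated data in which every group had the same spread. That simulation cannot show how the tests behave where groups differ in spread. Alternatives used DESeq2 1.42.0, limma 3.58.1 (voom), DESeq2 size factors, library totals, other filters, the 2 groups of a contrast alone, a replicate block, a reticulocyte covariate and each library left out. Replicates of a group differed beyond sampling noise, and unevenly between groups. The chi-square per degree of freedom between replicates was 27.3, 42.7 and 89.9 at 24 h, and 7.94 to 17.3 in the other groups.

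The 52 genes, the role and marker lists and the tests were chosen with earlier results of these data known. Named genes were those that passed in any contrast, up to 3 further genes per role with the smallest 4-group p, the 3 highest and lowest per kb, and genes of the same complexes that passed against vehicle, 1 of which is not reported here. Crebbp, Tet3, the markers Ccr2 and Mmp8 and the paralogue ratios were added after their values were seen.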

Additional observations from a re-analysis of the deposited data

How the results depend on the processing

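Counts of the 52 genes passing are given with, in brackets, the share of all genes tested that passed in the same fit. At 1 h the count, 1 of 52, was 0 with DESeq2 size factors (0.187%), library totals alone (0.486%), limma-voom (0.127%) or the replicate block (0.284%). With the reticulocyte covariate it was 2, Epc1 and Smarca2 (1.61%). At 6 h it was 9 with library totals alone (13.7%), 3 with no filter (4.89%), 2 with a filter of 5 CPM in 3 libraries (7.2%), 5 with DESeq2 (8.67%), 7 with only the groups compared (11.1%) and 0 with the reticulocyte covariate (0%). At 24 h it was 1, Kmt2a, with no filter (0.916%). For 6 h against 1 h it was 5 with library totals alone (5.04%), 6 with no filter (4.74%), 1 with the 5 CPM filter (0.93%), 5 with DESeq2 (5.55%) and 11 with only the groups compared (13.8%). For 24 h against 6 h it was 22 with library totals alone (22%), 6 with no filter (5.71%), 4 with DESeq2 (8.41%) and 1 with limma-voom (5.45%). In the 4-group test, where 1 passed, it was 3 with library totals alone (5.39%), 10 with no filter (7.72%), 2 with the 5 CPM filter (4.74%) and 7 with DESeq2 (10.5%). Leaving out 1 library gave 0 to 1 at 1 h (0.0508% to 1.17%), 0 to 6 at 6 h (1.74% to 8.99%), 0 to 0 at 24 h (0.0218% to 0.795%), 0 to 2 for the mean of the times (0.102% to 2.56%), 0 to 9 for 6 h against 1 h (0.0289% to 9.12%), 0 to 15 for 24 h against 6 h (0% to 15.9%) and 0 to 9 in the 4-group test (0.798% to 12.6%). The causes were not tested.

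Signs reversed for Arid1a at 6 h with library totals alone (-0.033). With the reticulocyte covariate they reversed for Brd2 (0.12), Kdm6b (0.52) and Pbrm1 (-0.49) at 6 h, and for Kdm6b (-0.32), Kmt2d (-0.61) and Pbrm1 (0.064) at 24 h against 6 h. The reticulocyte average of the 6 h libraries overlapped that of no other group, so these adjusted signs are extrapolations. The mean of the times had 1 gene passing with the covariate, Smarca2 rather than Epc1. Library totals alone also moved the median of all genes to 0.56 at 24 h against 6 h, -0.43 at 6 h against 1 h, -0.17 for the mean of the times and 0.11 at 24 h against 1 h. Same-numbered libraries of different groups correlated at r from -0.11 to 0.17 over 18 pairs, against -0.18 to 0.18 over 36 pairs of different number. No pairing by number was detected, which does not show that there was none. With the replicate block the count was 0 at 1 h and 1 at 6 h.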
